A study of Mus musculus with 40 samples.

Results

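The imprinted mouse genes Peg3, Grb10, Igf2, H19, Meg3, Mest, Plagl1, Cdkn1c, Peg10 and Sgce were followed through 40 3′ RNA-seq libraries of melanoma cells. These 10 of the 51789 genes in the count table were selected on their measured levels, because they differed between the melanoma lines, so the differences between lines are given below as a description without a test. The libraries formed 20 groups of 2. In B16-F10 cells, control (Ctrl) cells were compared with Bmal1 knockout (KO) cells. YUMM2.1 cells, from a mouse tumor whose engineered alleles included an oncogenic point mutation of Braf, loss of a single Cdkn2a copy and a stabilized β-catenin allele (Bcat STA/+), carried an empty vector (EV), wild-type Bmal1 (WT-Bmal1) or a Bmal1 without its helix-loop-helix domain (dHLH-Bmal1). The same 3 constructs were placed in aC3, which is a single CRISPR Bmal1 KO clone of YUMM2.1, and in YUMM1.7 cells, whose tumor of origin carried engineered alleles that included the Braf mutation and loss of both copies of Cdkn2a. The constructs were delivered by a lentivirus with GFP and the cells were sorted. The remaining 9 groups were YUMM2.1 cells with each construct and a scrambled hairpin (shNC) or a hairpin against Myh9 (shMyh9#2 or shMyh9#4). All were established cell lines, and a clone or a line is not a sample of many tumors.

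Imprinted genes are transcribed mainly or only from the copy inherited from a given parent, and this choice is set by DNA methylation at imprinting control regions. In the mouse, Peg3, Igf2, Mest, Plagl1, Peg10 and Sgce are expressed from the paternal copy, H19, Meg3 and Cdkn1c from the maternal copy, and Grb10 from the maternal copy in most tissues outside the brain. Many act on growth in the embryo and are turned down after birth. The counts did not separate the parental copies, so allele choice was not analysed here, and each level is the sum over both copies.

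Several of the genes are neighbours. In GRCm38, Peg10 (chr6:4747306-4760517, plus strand) and Sgce (chr6:4674350-4747207, minus strand) start from opposite strands with a gap of 98 bases between them. H19 (chr7:142575529-142578143), Igf2 (chr7:142650766-142666816) and Cdkn1c (chr7:143458339-143461050) lie on the minus strand of the distal end of chromosome 7, with 72622 bases between H19 and Igf2. Peg3 (chr7:6703892-6730431) is at the other end of that chromosome, and Grb10 (chr11:11930508-12038683), Meg3 (chr12:109541001-109571726), Mest (chr6:30723547-30748465) and Plagl1 (chr10:13060504-13131694) lie in clusters of their own. Mest overlaps 5 annotated genes, among them Copg2 on the opposite strand, while Meg3 overlaps 5, Igf2 3 and H19 3. Strand use in counting was not stated in the sources used here, so reads of overlapping genes may be shared.

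Promoter windows are printed for 3 genes whose levels in control cells set a single line apart. Bmal1 and its partner Clock bind the E-box CACGTG, and Plagl1 itself is a zinc finger factor that binds GGGGCCCC. Each window of 300 bases spans a RefSeq start (GRCm38.p6), is given 5′ to 3′ on the gene's strand, and has these motifs, read the same on both strands, in capitals.
Plagl1 promoter, chr10:13090582-13090881: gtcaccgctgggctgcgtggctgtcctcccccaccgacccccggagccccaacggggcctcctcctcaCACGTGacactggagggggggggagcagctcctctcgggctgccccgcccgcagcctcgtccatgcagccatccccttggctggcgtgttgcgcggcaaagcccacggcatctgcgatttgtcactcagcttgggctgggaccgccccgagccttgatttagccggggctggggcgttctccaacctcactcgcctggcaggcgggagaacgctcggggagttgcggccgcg
Grb10 promoter, chr11:12037371-12037670: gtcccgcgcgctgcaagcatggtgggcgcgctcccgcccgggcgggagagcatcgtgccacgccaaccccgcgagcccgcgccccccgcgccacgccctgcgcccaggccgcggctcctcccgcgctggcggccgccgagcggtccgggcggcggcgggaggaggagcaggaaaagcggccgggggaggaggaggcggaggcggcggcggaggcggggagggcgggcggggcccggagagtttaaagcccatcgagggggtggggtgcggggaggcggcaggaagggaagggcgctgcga
Peg3 promoter, chr7:6730370-6730669: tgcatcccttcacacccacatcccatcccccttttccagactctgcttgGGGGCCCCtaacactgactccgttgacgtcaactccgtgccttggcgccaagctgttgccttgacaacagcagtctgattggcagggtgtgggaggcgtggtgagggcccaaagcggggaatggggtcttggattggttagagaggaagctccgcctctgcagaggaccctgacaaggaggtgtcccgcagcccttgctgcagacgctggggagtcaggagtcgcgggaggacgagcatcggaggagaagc
CACGTG occurred in the Plagl1 window and in no other of the 13 windows found for 6 of the 10 genes, against 7.15% of 32851 promoter windows. GGGGCCCC occurred in the Peg3 window only, against 1.08% of all windows. Neither motif was in this Grb10 window, which held 45 CG pairs, more than 98.1% of windows, where the median was 7. A match is a run of letters and says nothing of binding.

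H19 and Mest also host microRNAs, which the 3′ libraries did not measure. They are shown because the levels of these 2 transcripts moved most within YUMM2.1. The mature sequences from RefSeq (GRCm38.p6) have their seed, bases 2 to 8, in capitals.
mmu-miR-675-5p: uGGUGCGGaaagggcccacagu
mmu-miR-675-3p: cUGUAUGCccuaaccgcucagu
mmu-miR-335-5p: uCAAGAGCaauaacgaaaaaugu
mmu-miR-335-3p: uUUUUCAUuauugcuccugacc
The 4 seeds differ from each other.

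Total counts ran from 3643332 to 22970049 per library, with a median of 10021164.5, so 1 CPM, the usual unit of counts scaled to the library total, stood for about 10 counts in a typical library. CPM values below also carry the TMM scaling, and a library with 0 counts was given a floor of 3 counts for folds. The melanocyte genes Dct, Mlana and Tyrp1 had 0 counts in all YUMM2.1, aC3 and YUMM1.7 groups without hairpin, whereas the 7 melanocytic markers together reached 19700 to 26000 CPM in B16-F10. In YUMM2.1 EV the 7 summed to 499 to 519 CPM, with Sox10 at a mean of 495 CPM, and in YUMM1.7 EV to 14.1 to 14.8 CPM. Mitf had 12.5 to 14.5 CPM in the EV libraries of both YUMM lines. The lines are called by their names. The EV and WT-Bmal1 labels of YUMM2.1 without hairpin were in doubt. Of 8 columns of a second, normalized table for these cells, 6 were proportional to the library of the same name, and the columns named EV replicate 2 and WT-Bmal1 replicate 1 were proportional to each other's library. In log2 ratios over 6644 genes, the SD between EV replicate 1 and WT-Bmal1 replicate 1 was 0.186. It was 0.207 between their replicate 2 libraries, 0.41 between the EV libraries and 0.269 between the WT-Bmal1 libraries. After the exchange, EV holds both replicate 1 libraries and WT-Bmal1 both replicate 2 libraries. Exchanged labels and a batch by replicate number therefore cannot be told apart by these distances. Comparisons with these libraries were therefore also fitted with those labels exchanged, and the exchanged values are printed beside the changes named below.

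Across the 20 groups, 9 of the 10 genes reached a mean of 1 CPM in at least 1 group, and only Plagl1, Peg10 and Sgce did so in all 20. Igf2, the fetal growth factor, stayed under 1 CPM in every group, with at most 5 counts in any of the 40 libraries. Cdkn1c, an inhibitor of cyclin-dependent kinases, had at most 14 counts and was at 0 in all 6 YUMM1.7 libraries. Peg3, Grb10, H19, Mest, Plagl1, Peg10 and Sgce passed 10 CPM in some group.

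**Figure D1:**
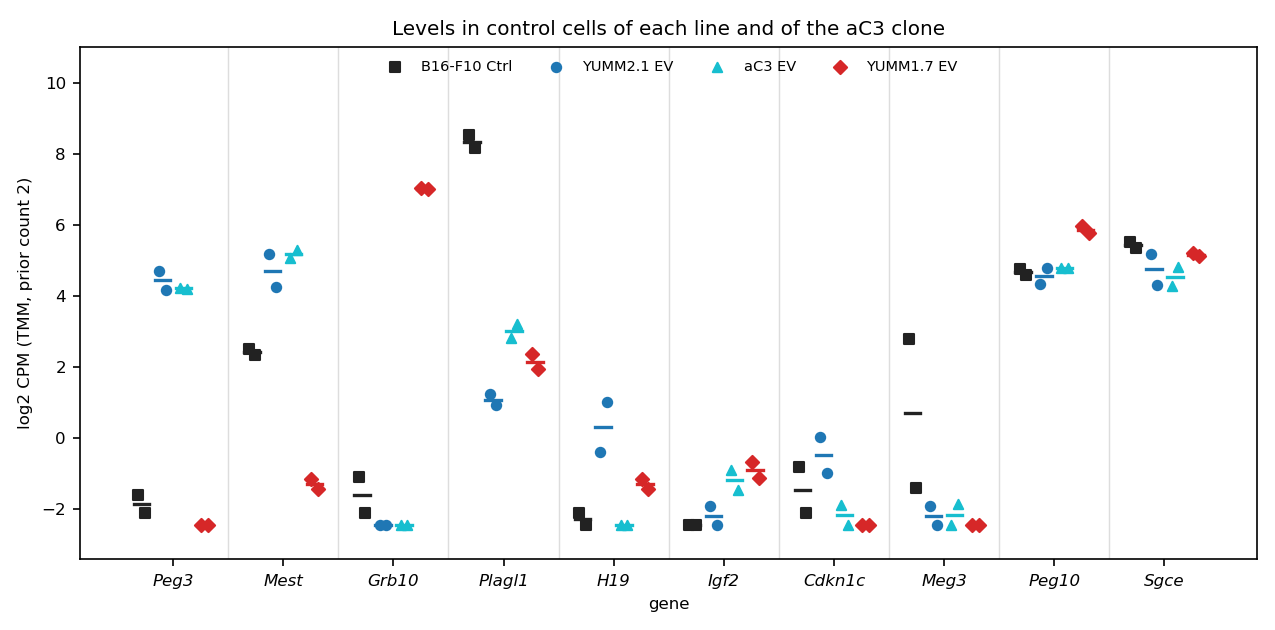
Levels of the 10 genes as log2 CPM (vertical axis) in the 2 control libraries of B16-F10, YUMM2.1, the YUMM2.1 clone aC3 and YUMM1.7. Points are libraries and short lines are means; Peg3 and Mest were high in YUMM2.1 and aC3, Grb10 in YUMM1.7 and Plagl1 in B16-F10, while Peg10 and Sgce were present in every line.

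Between control cells, 5 of the 7 genes with at least 1 CPM in B16-F10 Ctrl or YUMM2.1 EV were at least 4-fold apart, beside 16.6% of all genes at that level. For YUMM1.7 EV against YUMM2.1 EV it was 3 of 7, beside 11.4%, and for B16-F10 Ctrl against YUMM1.7 EV 4 of 6, beside 17.6%. Since these differences chose the genes, nothing is read from the shares. Peg10 and Sgce were under 4-fold in all 3 pairs.

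Peg3, a zinc finger protein, had 311 and 164 counts in YUMM2.1 EV (26.0 and 17.7 CPM), 208 and 198 in aC3 EV, 3 and 1 in B16-F10 Ctrl, and 0 in each of the 6 YUMM1.7 libraries. All YUMM2.1 and aC3 libraries without a hairpin had at least 9.64 CPM. No B16-F10 or YUMM1.7 library passed 0.144 CPM. With a hairpin Peg3 was lower in some YUMM2.1 groups, down to 0.213 CPM in a dHLH-Bmal1 shMyh9#2 library. That value is near the floor and does not set the library apart from B16-F10. The mean in YUMM2.1 EV was 227-fold that of B16-F10 Ctrl, which rests on 4 counts, and at least 80.0-fold the floor in YUMM1.7 EV. Usp29, the gene beside Peg3 that shares its imprinted domain, was low but had the same order, with 1.92 CPM ± 1.65 (SD, n = 2) in YUMM2.1 EV, 1.17 in aC3 EV, 0.024 in B16-F10 Ctrl and 0 in YUMM1.7 EV.

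Mest, an enzyme-like protein of embryonic mesoderm, had 432 and 173 counts in YUMM2.1 EV (36.1 and 18.7 CPM), 375 and 427 in aC3 EV (33.3 and 39.3 CPM), 114 and 101 in B16-F10 Ctrl (5.47 and 4.89 CPM) and 3 and 2 in YUMM1.7 EV. The libraries of YUMM2.1 EV and aC3 EV overlapped, and the other lines lay below them without overlap. The YUMM2.1 EV mean was 5.29-fold that of B16-F10 Ctrl and 121-fold that of YUMM1.7 EV. Copg2, which overlaps Mest on the other strand, kept 83.0, 51.4 and 44.6 CPM in B16-F10 Ctrl, YUMM2.1 EV and YUMM1.7 EV.

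Grb10, an adaptor that restrains insulin and IGF receptor signaling, had 1327 to 1472 counts in the 6 YUMM1.7 libraries (127 to 136 CPM). In the other 34 libraries it had between 0 and 7 counts, and it was at 0 in all 18 libraries with a hairpin. The EV mean of 129 CPM in YUMM1.7 was at least 449-fold the floor in YUMM2.1 EV. Its neighbour Cobl, which also belongs to the imprinted domain, ran the other way, with 22.4 CPM in YUMM2.1 EV, 22.2 in aC3 EV, 0.133 in YUMM1.7 EV and 0.048 in B16-F10 Ctrl.

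Plagl1, a zinc finger factor that slows the cell cycle, had 5880 to 7684 counts in the 4 B16-F10 libraries (285 to 368 CPM). No other library passed 111 counts. Its B16-F10 Ctrl mean of 327 CPM was 168-fold that of YUMM2.1 EV and 75.9-fold that of YUMM1.7 EV. Phactr2, next to Plagl1, was also highest in B16-F10 Ctrl among the control cells but over a smaller range, with 54.7 CPM against 22.6 in YUMM2.1 EV and 5.99 in YUMM1.7 EV.

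H19, a long noncoding RNA, was low in control cells of each line. It had 7 and 17 counts in YUMM2.1 EV, 3 and 2 in YUMM1.7 EV, 1 and 0 in B16-F10 Ctrl, and 0 and 0 in aC3 EV. Meg3, also a long noncoding RNA, rested on a single library, with 141 counts in B16-F10 Ctrl replicate 1, 4 in replicate 2 and at most 7 in any other library. Its mean of 3.48 CPM in B16-F10 Ctrl had an SD of 4.64, so its gap to the other lines is within the spread of that group. Rian, transcribed from the same cluster as Meg3, was present at 17.1 to 23.2 CPM in the control cells of all lines, and Dlk1, the paternally expressed gene of that cluster, was at 130 CPM in YUMM1.7 EV, 9.90 in YUMM2.1 EV, 1.22 in B16-F10 Ctrl and 0.044 in aC3 EV.

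Peg10, derived from a retrotransposon, and Sgce, a sarcoglycan, share a start region and were expressed in every line. Peg10 had 26.9 and 23.8 CPM in B16-F10 Ctrl, 19.9 and 27.6 in YUMM2.1 EV, and 62.0 and 54.4 in YUMM1.7 EV. Sgce had 45.9 and 40.4 CPM in B16-F10 Ctrl, 36.1 and 19.7 in YUMM2.1 EV, and 28.2 to 37.9 over the 6 YUMM1.7 libraries. Among these control libraries YUMM1.7 lay above the other lines for Peg10, though YUMM2.1 dHLH-Bmal1, at 65.0 and 63.6 CPM, lay within the YUMM1.7 range. For Sgce, B16-F10 Ctrl lay above both YUMM lines, which overlapped each other.

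**Figure D2:**
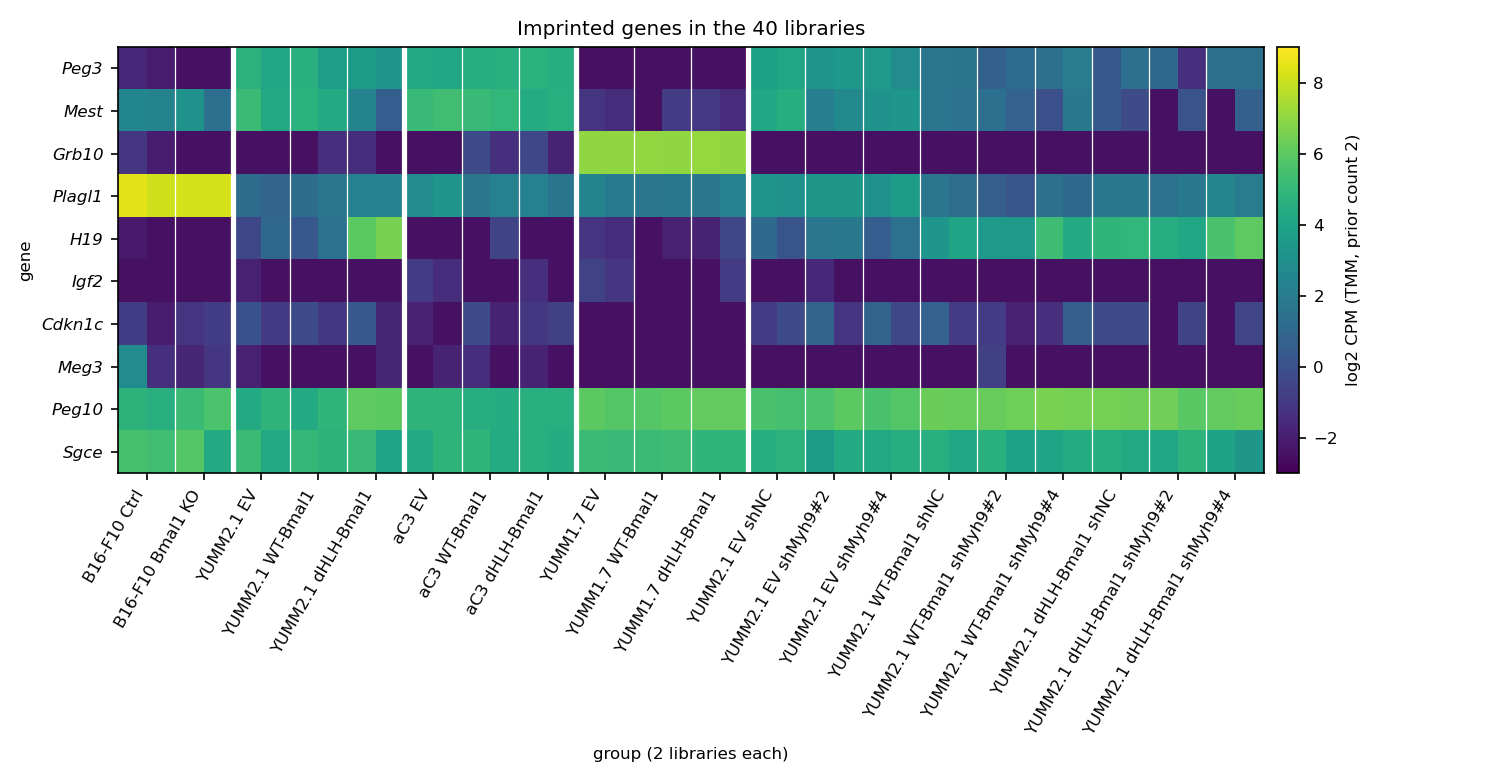
Log2 CPM of each gene (rows) in each of the 40 libraries (columns, 2 per group), from dark (low) to yellow (high). Wide white lines divide B16-F10, YUMM2.1, aC3, YUMM1.7 and YUMM2.1 with hairpin. Grb10 was high in the 6 YUMM1.7 libraries and Plagl1 in the 4 B16-F10 libraries. H19 was high in the dHLH-Bmal1 libraries of YUMM2.1 and, with a hairpin, also in its WT-Bmal1 libraries (9.68 to 38.3 CPM).

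In the order over all 20 groups, the 3 YUMM1.7 groups came first for Grb10 and the 2 B16-F10 groups for Plagl1. For Peg3 the highest group was aC3 dHLH-Bmal1 with 23.8 CPM ± 2.45 (SD, n = 2). For Mest the highest was aC3 EV, with 36.3 CPM ± 4.26 (SD, n = 2). The top H19 group was YUMM2.1 dHLH-Bmal1, at 78.0 CPM ± 20.6 (SD, n = 2). Peg10 was highest in YUMM2.1 WT-Bmal1 shMyh9#4, at 92.4 CPM ± 5.28 (SD, n = 2), and Sgce in B16-F10 Ctrl, at 43.1 CPM ± 3.90 (SD, n = 2). For Peg3, Mest, H19, Peg10 and Sgce the libraries of the top group overlapped those of the next group. The steps between neighbouring groups were not tested, and nothing is read from them.

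The rule for choosing the genes was about differences between lines, and comparisons within a line or between YUMM2.1 and its clone were tested by the quasi-likelihood method of edgeR, adjusted by Benjamini-Hochberg over all genes and called at an adjusted p under 0.05. In the 16 comparisons of 2 groups, 96 gene and comparison pairs passed the filter on low counts, 19 of them were called, and Peg3, H19, Mest, Plagl1 and Peg10 were called at least once. The 19 calls fell in 8 of the 16 comparisons. In single comparisons the share of all genes called ran from 0% to 26.4%, and it is given beside each count below. Grb10, Cdkn1c and Sgce were tested 2, 8 and 16 times without a call, and Igf2 and Meg3 were not above the filter in these comparisons. Replicates were separate samples by their labels, and where they were not separate cultures the p-values measure technical spread.

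In YUMM2.1 without hairpin, dHLH-Bmal1 went with changes of several genes. Against EV, 3 of the 6 genes tested were called, H19 and Peg10 higher and Mest lower, beside 13.2% of all genes. H19 had 7 and 17 counts in EV (0.584 and 1.84 CPM), 12 and 27 in WT-Bmal1 (1.02 and 2.68 CPM) and 673 and 787 in dHLH-Bmal1 (63.5 and 92.6 CPM). Both dHLH-Bmal1 libraries were above every EV and WT-Bmal1 library. The log2 fold change against EV was 6.09 ± 0.54 (SE), with an adjusted p of 0.00169, and 6.60, adjusted p = 4.42e-06, with the labels exchanged. Without EV replicate 1 or 2 it was 5.42 or 7.04, and called each time. H19 passed the filter partly through the group where it was high.

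Mest went the other way in the same cells. It had 36.1 and 18.7 CPM in EV, 25.3 and 20.2 in WT-Bmal1 and 4.90 and 1.29 in dHLH-Bmal1, so that dHLH-Bmal1 lay below both other groups. Its log2 fold change was -3.09 ± 0.55 (SE), with an adjusted p of 0.0148, and -3.24, adjusted p = 0.00071, with the labels exchanged. Without dHLH-Bmal1 replicate 1 or 2 it was -4.38 or -2.48, and called each time. Peg10 had 19.9 and 27.6 CPM in EV, 20.3 and 28.9 in WT-Bmal1 and 65.0 and 63.6 in dHLH-Bmal1, again without overlap. Its log2 fold change was 1.46 ± 0.23 (SE), with an adjusted p of 0.00968, and 1.69, adjusted p = 2.71e-05, with the labels exchanged, while Sgce beside it had 33.3 and 15.9 CPM in dHLH-Bmal1, within the EV spread.

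Peg3 in YUMM2.1 had 26.0 and 17.7 CPM in EV and 11.6 and 9.64 in dHLH-Bmal1, which did not overlap. As labelled it was not called, with a log2 fold change of -1.02 and an adjusted p of 0.101. With the labels exchanged it was called, at -1.22 and an adjusted p of 0.00268, and with the replicate number as a block at -1.01 and 0.00542. Plagl1 had 2.17 and 1.73 CPM in EV and 4.53 and 4.82 in dHLH-Bmal1, with a log2 fold change of 1.27 and an adjusted p of 0.065 as labelled, 0.0554 with the labels exchanged and 0.0405 with the block. Whether the numbers pair these libraries was not established.

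WT-Bmal1 against EV in YUMM2.1 without hairpin gave no call among the 6 genes tested, beside 0% of all genes (0 of 14323 by edgeR, 98 at an unadjusted p under 0.05, and 0 by DESeq2, with 56 unadjusted). With the labels exchanged 101 genes were called and none of the 6 was among them. That comparison sets the replicate 1 libraries against the replicate 2 libraries, so its calls may reflect the construct or the replicate number. H19 then had a mean of 0.803 CPM in EV and 2.26 in WT-Bmal1.

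**Figure D3:**
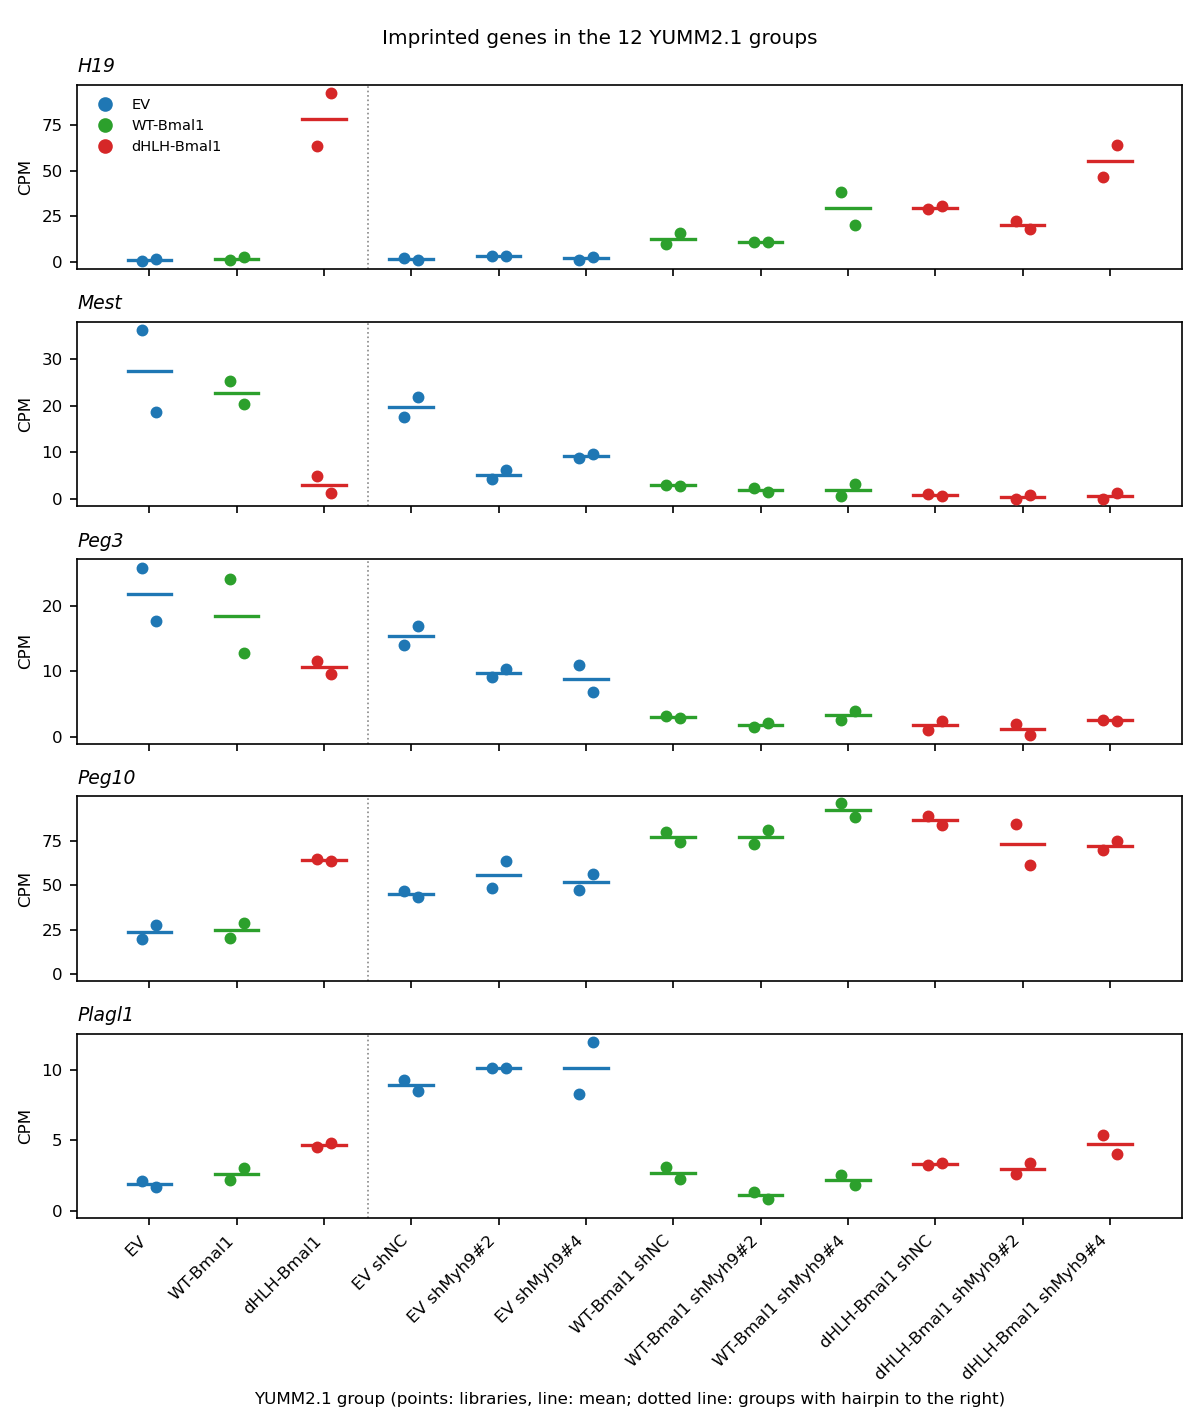
CPM (vertical axes) of 5 genes in the 12 YUMM2.1 groups; points are libraries, lines are means, and groups with a hairpin stand to the right of the dotted line. With shNC, H19 and Peg10 were higher and Mest, Peg3 and Plagl1 lower in WT-Bmal1 and dHLH-Bmal1 cells than in EV cells.

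In YUMM2.1 cells with the scrambled hairpin, both constructs went with calls for the same 5 of 7 genes tested. These comparisons share the EV shNC libraries, so they are not independent of each other. For WT-Bmal1 against EV, H19 and Peg10 were higher and Peg3, Mest and Plagl1 lower, beside 22.3% of all genes. For dHLH-Bmal1 against EV the directions were as for WT-Bmal1, beside 26.4% of all genes.

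H19 had 16 and 8 counts in EV shNC (1.96 and 0.896 CPM), 71 and 132 in WT-Bmal1 shNC (9.68 and 15.8 CPM) and 419 and 188 in dHLH-Bmal1 shNC (29.1 and 30.5 CPM). The 3 groups did not overlap. The log2 fold change against EV was 3.16 ± 0.41 (SE), adjusted p = 2.66e-05, with WT-Bmal1 and 4.39 ± 0.39 (SE), adjusted p = 1.9e-07, with dHLH-Bmal1. Without EV shNC replicate 1 these were 3.81 and 5.03, both called. H19 with WT-Bmal1 thus rose in the hairpin series and was not called without a hairpin, and the difference between the series was not tested.

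Mest had 17.6 and 21.7 CPM in EV shNC, 3.14 and 2.75 in WT-Bmal1 shNC and 1.11 and 0.649 in dHLH-Bmal1 shNC. Each group lay apart from the others. Its log2 fold changes were -2.75 ± 0.55 (SE), adjusted p = 0.00155, and -4.37 ± 0.62 (SE), adjusted p = 4.32e-05. Peg3 had 14.1 and 16.9 CPM in EV shNC, 3.14 and 2.86 in WT-Bmal1 shNC and 1.04 and 2.43 in dHLH-Bmal1 shNC. EV lay above both constructs. It fell by 2.37 and 3.28 on the log2 scale, with SEs of 0.49 and 0.53 and adjusted p of 0.00197 and 0.000152. Without dHLH-Bmal1 shNC replicate 1 or 2 the latter was -2.66 or -3.88, and called each time.

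Plagl1 had 9.30 and 8.52 CPM in EV shNC, 3.14 and 2.27 in WT-Bmal1 shNC and 3.26 and 3.41 in dHLH-Bmal1 shNC. EV lay above both constructs, opposite to the order without hairpin, where EV had 2.17 and 1.73 CPM. The log2 fold changes were -1.73 ± 0.33 (SE), adjusted p = 0.00105, and -1.42 ± 0.32 (SE), adjusted p = 0.00306. Peg10 had 46.7 and 43.5 CPM in EV shNC, 80.2 and 74.4 in WT-Bmal1 shNC and 89.1 and 83.9 in dHLH-Bmal1 shNC, with log2 fold changes of 0.77 ± 0.15 (SE), adjusted p = 0.00154, and 0.94 ± 0.15 (SE), adjusted p = 0.00017. Sgce was not called in either comparison.

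Other gene groups moved in the same libraries. The summed level of the 8 mesenchymal markers was 446 to 560 CPM in YUMM2.1 EV and 1320 to 1610 in dHLH-Bmal1, and 353 to 381 in EV shNC, 951 to 1030 in WT-Bmal1 shNC and 1320 to 1330 in dHLH-Bmal1 shNC. Thy1 or Lum was at 0 in each of these groups. The 7 melanocytic markers summed to 499 to 519 CPM in YUMM2.1 EV and 81.1 to 93.0 in dHLH-Bmal1, and to 343 to 349, 119 to 122 and 41.2 to 44.3 CPM in the 3 shNC groups. Sox10, a neural crest factor, alone had means of 495 CPM in YUMM2.1 EV and 69.0 in dHLH-Bmal1, so it made up most of that sum. Mitf did not fall, with log2 fold changes of 0.33 with dHLH-Bmal1 in YUMM2.1, and 0.37 with WT-Bmal1 and 0.24 with dHLH-Bmal1 in the shNC series. Pdgfra, of the mesenchymal list, had 1.17, -0.53 and -1.05 in these comparisons. None of these changes of Mitf and Pdgfra was called. The part of these genes in the changes of the imprinted genes was not tested, and in bulk libraries fewer cells of a type and less RNA per cell cannot be told apart. Immune markers stayed at or under 3.91 CPM in sum in all groups.

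The construct labels could not be checked by Arntl, the gene for Bmal1, since the sources used here do not state whether the constructs carry its 3′ end. Arntl had 16.02 and 13.95 CPM in YUMM2.1 EV, 13.9 and 18.1 in WT-Bmal1 and 50.9 and 35.0 in dHLH-Bmal1. In aC3 it had 32.8 and 30.3 CPM in EV, 18.2 and 17.4 in the libraries labelled WT-Bmal1 and 44.96 and 31.41 in dHLH-Bmal1. The WT-Bmal1 libraries were thus below EV in aC3, with a log2 fold change of -0.83 and an adjusted p of 0.00356, and overlapped EV in YUMM2.1, so this transcript did not rise with the WT-Bmal1 label in either.

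In the aC3 clone, dHLH-Bmal1 against EV gave calls for 2 of 5 genes tested, both lower, beside 10.9% of all genes, and the libraries labelled WT-Bmal1 against EV for 1 of 5, lower, beside 11.2%. Both comparisons share the aC3 EV libraries. Mest had 33.3 and 39.3 CPM in EV, 35.2 and 30.6 in WT-Bmal1 and 20.5 and 23.0 in dHLH-Bmal1, and dHLH-Bmal1 lay below the others. Its log2 fold change with dHLH-Bmal1 was -0.75 ± 0.13 (SE), adjusted p = 0.00324, and without EV replicate 2 it was -0.62, adjusted p = 0.0645. Plagl1 had 6.83 and 9.02 CPM in EV, 3.21 and 4.70 in WT-Bmal1 and 4.66 and 2.97 in dHLH-Bmal1, so EV lay above both. It changed by -1.01 ± 0.31 (SE), adjusted p = 0.0471, with WT-Bmal1 and by -1.05 ± 0.31 (SE), adjusted p = 0.0426, with dHLH-Bmal1, and both calls were lost by leaving out either EV library (adjusted p of 0.0905 and 0.321, and of 0.0786 and 0.301). The WT-Bmal1 call was also lost without WT-Bmal1 replicate 1 (0.297) or 2 (0.0819), and the dHLH-Bmal1 call without dHLH-Bmal1 replicate 2 (0.14). H19 was at 0 in 5 of the 6 aC3 libraries, with 5 counts in WT-Bmal1 replicate 2, and so had no rise with dHLH-Bmal1 that these depths could show.

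The clone itself was set against its parent line in aC3 EV and YUMM2.1 EV, where 1 of 6 genes tested was called, beside 1.64% of all genes. Plagl1 had 6.83 and 9.02 CPM in aC3 EV and 2.17 and 1.73 in YUMM2.1 EV, with a log2 fold change of 2.04 ± 0.34 (SE) and an adjusted p of 0.0115, and 1.87, adjusted p = 0.00548, with the labels exchanged. The call was lost without YUMM2.1 EV replicate 2 (adjusted p = 0.0758), aC3 EV replicate 1 (0.0537) or aC3 EV replicate 2 (0.153). The YUMM2.1 EV shNC libraries, which were not part of this test, had 9.30 and 8.52 CPM of Plagl1 and overlapped aC3 EV. The Plagl1 difference was thus seen only against EV cells without hairpin. H19 had no counts in aC3 EV and was at least 4.47-fold lower there. It was called with the labels exchanged but not as labelled. Since it passed the filter only through the YUMM2.1 groups, no difference is read from this. Exchanged labels also gave a call for Peg10, at 0.47 on the log2 scale with an adjusted p of 0.0232. A single clone cannot tell the loss of Bmal1 apart from other changes of that clone.

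**Figure D4:**
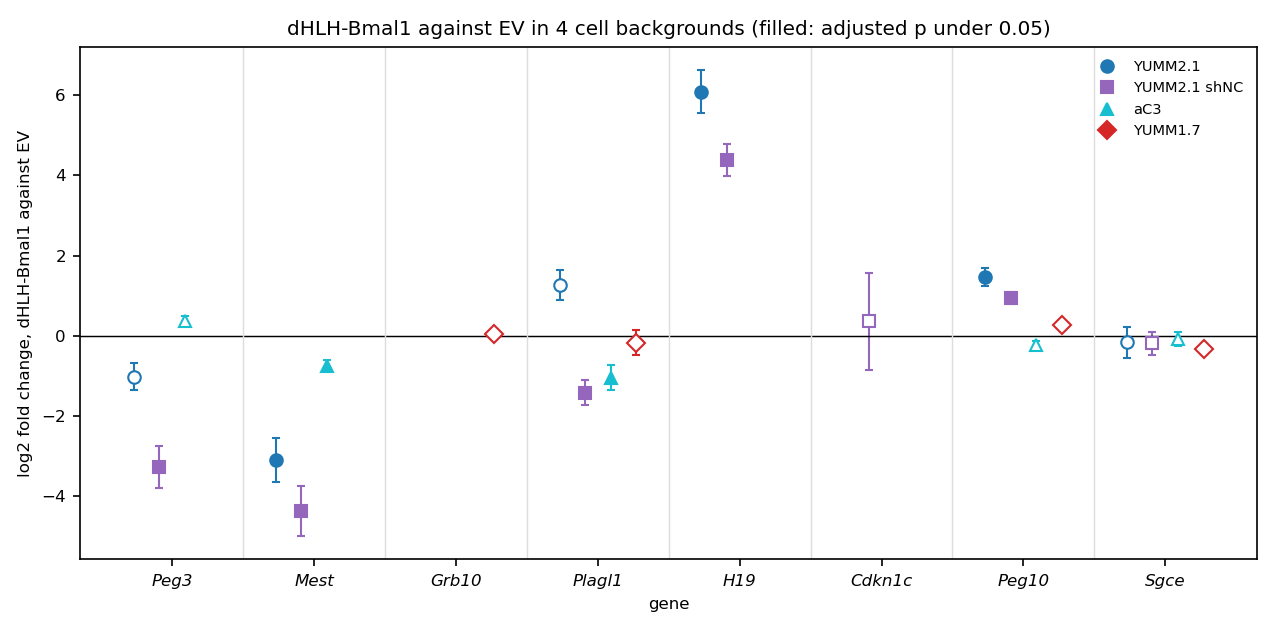
Log2 fold change of dHLH-Bmal1 against EV (vertical axis, bars ± SE) for the genes tested in YUMM2.1, YUMM2.1 with shNC, aC3 and YUMM1.7. Filled symbols had an adjusted p under 0.05; H19 and Peg10 rose and Mest fell in both YUMM2.1 series, and no gene was called in YUMM1.7.

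In YUMM1.7, neither construct gave a call among the 4 genes tested (Grb10, Plagl1, Peg10 and Sgce), beside 0.138% of all genes for WT-Bmal1 and 0.63% for dHLH-Bmal1. Grb10 had 130 and 127 CPM in EV, 131 and 130 in WT-Bmal1 and 136 and 130 in dHLH-Bmal1. The groups overlapped, and the log2 fold change was 0.01 ± 0.06 (SE) and 0.05 ± 0.06 (SE). Peg3 stayed at 0 counts and Mest at no more than 4 counts under every construct.

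Whether dHLH-Bmal1 acted differently in the cell backgrounds was tested as a difference between effects. Between aC3 and YUMM2.1, 4 of the 5 genes with at least 10 counts in a library of both were called, beside 12.2% of all genes. That share is over all genes past the filter on low counts, where 4 of 6 of the listed genes were called. The dHLH-Bmal1 effect in aC3 minus that in YUMM2.1 was 1.36 ± 0.38 (SE) for Peg3, 2.29 ± 0.55 (SE) for Mest, -2.35 ± 0.48 (SE) for Plagl1 and -1.74 ± 0.26 (SE) for Peg10 on the log2 scale, with adjusted p of 0.0402, 0.0187, 0.00819 and 0.00117. With the labels exchanged all 4 were called, at 1.56, 2.45, -2.18 and -1.96. The YUMM2.1 side of this test was the series without hairpin. With shNC the dHLH-Bmal1 effect on Plagl1 in YUMM2.1 was -1.42, the same direction as in aC3. Peg3, Mest and Peg10 kept their YUMM2.1 direction with shNC. The Peg3 call was lost without YUMM2.1 EV replicate 1 (adjusted p = 0.109), YUMM2.1 dHLH-Bmal1 replicate 2 (0.0848), aC3 EV replicate 1 (0.114) or 2 (0.11) and aC3 dHLH-Bmal1 replicate 1 (0.129) or 2 (0.0686). The Mest call was lost without aC3 EV replicate 1 (0.0764) or aC3 dHLH-Bmal1 replicate 2 (0.0595), and the difference was 3.65 without YUMM2.1 dHLH-Bmal1 replicate 1. The H19 difference could not be fitted, since aC3 EV and aC3 dHLH-Bmal1 held no H19 counts.

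Between YUMM1.7 and YUMM2.1, 1 of the 3 genes with at least 10 counts in a library of both was called, beside 9.89% of all genes. That share is over all genes past the filter on low counts, where 1 of 7 of the listed genes was called. Peg10 differed by -1.19 ± 0.25 (SE), adjusted p = 0.0132 (-1.42 with the labels exchanged, adjusted p = 1.55e-05), and the call was lost without YUMM1.7 EV replicate 1 (0.069) or YUMM1.7 dHLH-Bmal1 replicate 1 (0.0623) or 2 (0.0622). H19, with at most 6 counts in the YUMM1.7 libraries compared, differed by -5.54 on the log2 scale with an adjusted p of 0.0518. It passed the filter only through YUMM2.1 and its call depended on the setting, so no difference in effect is read from it. Peg3, Mest and Grb10 also passed the filter only through the line where they were high. None of these genes, H19 included, is counted among the 3. The comparisons share the YUMM2.1 EV and dHLH-Bmal1 libraries.

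In B16-F10, none of the 4 genes tested was called between Bmal1 KO and Ctrl, beside 0.44% of all genes. Peg10 had 26.9 and 23.8 CPM in Ctrl and 36.6 and 48.5 in KO, which did not overlap, with a log2 fold change of 0.74 ± 0.22 (SE) and an adjusted p of 0.314. The KO libraries lay far apart for other genes. Mest had 8.64 and 2.38 CPM in KO on either side of 5.47 and 4.89 in Ctrl, and Sgce had 57.1 and 20.3 CPM in KO on either side of 45.9 and 40.4 in Ctrl. Without KO replicate 1, Mest, Sgce and Peg10 changed by -1.11, -1.08 and 0.94. Without KO replicate 2 they changed by 0.72, 0.39 and 0.52, so the direction for Mest and Sgce was decided by a single library. Meg3 passed the filter in these fits only through Ctrl replicate 1, so nothing is read from it. Plagl1 had 368 and 285 CPM in Ctrl and 296 in each KO library. The Arntl transcript, which encodes Bmal1, had 15.3 and 10.7 CPM in Ctrl and 13.4 and 11.4 in KO, so its level did not separate the groups. A 3′ tag can be kept after an edit in the coding part and checks nothing about the protein.

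In EV cells Myh9, a nonmuscle myosin heavy chain and the target of the hairpins, had means of 681 CPM with shNC, 239 with shMyh9#2 and 481 with shMyh9#4. In EV cells shMyh9#2 gave a call for 1 of 7 genes tested, beside 6.65% of all genes, and shMyh9#4 for none of 7, beside 1.71%. Mest had 17.6 and 21.7 CPM with shNC, 4.26 and 6.30 with shMyh9#2 and 8.90 and 9.71 with shMyh9#4, and the groups were apart. Its log2 fold change was -1.89 ± 0.52 (SE), adjusted p = 0.0371, with shMyh9#2 and -1.10 ± 0.50 (SE), adjusted p = 0.449, with shMyh9#4, and the first was lost without any of its 4 libraries (EV shNC replicate 1 or 2, adjusted p of 0.128 and 0.214, and EV shMyh9#2 replicate 1 or 2, of 0.273 and 0.108).

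In WT-Bmal1 cells neither hairpin gave a call among the 7 genes, beside 4.76% of all genes for shMyh9#2 and 0.236% for shMyh9#4. In dHLH-Bmal1 cells shMyh9#2 gave none of 7, beside 0.559%, and shMyh9#4 1 of 7, beside 15.1%. H19 there had 29.1 and 30.5 CPM with shNC, 22.3 and 18.3 with shMyh9#2 and 46.4 and 63.8 with shMyh9#4, with no overlap. Its log2 fold change with shMyh9#4 was 0.90 ± 0.29 (SE), adjusted p = 0.0407, which was lost without dHLH-Bmal1 shNC replicate 1 (0.207) or 2 (0.139) or shMyh9#4 replicate 2 (0.353). In WT-Bmal1 cells H19 had 9.68 and 15.8 CPM with shNC and 38.3 and 20.3 with shMyh9#4, without overlap and with an adjusted p of 0.0987. The hairpins of each construct share its shNC libraries. The shMyh9#2 effect in dHLH-Bmal1 cells minus that in EV cells was called for none of 7 genes, beside 3.29% of all genes.

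Other genes of these imprinted clusters were described from a list of 30 neighbours, of which 14 passed the filter in YUMM2.1. With dHLH-Bmal1 against EV in YUMM2.1, 1 was called higher and 3 lower, beside 13.2% of all genes called, with a median log2 fold change of -0.21 beside -0.01 over all genes. Pon3, which lies near Sgce and Peg10, changed by 2.40 ± 0.55 (SE), while Ppp1r9a of the same cluster was called lower, at -0.99 ± 0.14 (SE). Cobl and Phactr2 changed by -2.07 ± 0.19 (SE) and -1.33 ± 0.24 (SE). With shNC the list again had 1 called higher and 3 lower for each construct, beside 22.3% and 26.4% of all genes called. Pon3 was at 2.54 ± 0.23 (SE) for WT-Bmal1 and 3.27 ± 0.22 (SE) for dHLH-Bmal1. Ppp1r9a was at -0.43 ± 0.18 (SE), not called, and at -0.66 ± 0.18 (SE), called. In aC3 EV against YUMM2.1 EV, Pon3 (0 counts in aC3 EV) and Dlk1 were called lower and none higher of 14, beside 1.64% of all genes.

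A list of 28 imprinted genes from other loci had 2 called higher and 1 lower of 16 tested with dHLH-Bmal1 in YUMM2.1, with a median log2 fold change of 0.03. That and the counts of the lists below stand beside 13.2% of all genes called. Rasgrf1, a Ras exchange factor, changed by 2.26 ± 0.57 (SE) there and by 2.14 ± 0.15 (SE) and 1.59 ± 0.15 (SE) with WT-Bmal1 and dHLH-Bmal1 in the shNC series. Of 14 genes that keep or remove imprints, 13 were tested in YUMM2.1 with dHLH-Bmal1, where the dioxygenase Tet2 was called higher and 2 were lower, among them Uhrf1, which brings Dnmt1 to hemimethylated DNA, at -0.78 ± 0.16 (SE). Of 15 genes of the insulin-like growth factor pathway, on which Igf2 and Grb10 act, 13 were tested, with Igf1r called higher at 0.57 ± 0.11 (SE) and 1 lower.

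Finally, the genes with the group means most like each member over the 20 groups were found among 13937 genes by Pearson's r of log2 CPM, as a description. They were Moxd1 for Peg3 (r = 0.983), Sox12 for Grb10 (0.995), Brinp3 for H19 (0.97), Mecom for Mest (0.972), Dcdc2a for Plagl1 (0.943), Avpi1 for Peg10 (0.952) and Fbxo10 for Sgce (0.954). The 20 points share lines and libraries, and a gene high in a single line is matched by any other such gene. Over the 12 YUMM2.1 groups alone, r was 0.909 between Peg3 and Mest, -0.866 between H19 and Mest and 0.777 between H19 and Peg10, whereas the adjacent genes Peg10 and Sgce had -0.616.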

How the data were processed

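Whole-number counts per Ensembl gene for 40 QuantSeq FWD 3′ libraries (TRIzol RNA, single-end reads) were deposited by the authors in a single table, made by them with bowtie2 and RSEM on mm10 (the version is not printed because the sources differ), with no normalization. Symbols came from GRCm38 annotation for 99.63% of identifiers. Groups came from the labels. The genes and lists were chosen with earlier results of these data known. Libraries of each experiment were fitted together in edgeR 4.0.16 (R 4.3.3) with TMM, filterByExpr, glmQLFit and glmQLFTest, and Benjamini-Hochberg adjustment over all genes; the procedure was tested on simulated data. SE is the log2 fold change divided by the root of F. Levels are TMM-scaled CPM, with a prior count of 2 on the log2 scale. All 10 genes are named; from other lists, up to 2 called genes per direction with a mean of at least 10 counts, or cluster neighbours with their level. Alternatives were DESeq2 1.42.0 (size factors or Wald test), no filter, a fit of all 40 libraries, a replicate block, each library left out and exchanged YUMM2.1 labels. With 2 libraries per group, Dixon's test for outliers was not run. Counting error and depth limit genes under 10 counts. A further allele of the YUMM lines is not reported here.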

Additional observations from a re-analysis of the deposited data

Results flagged for a closer look

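Effects of dHLH-Bmal1 against EV that differed between cell backgrounds, by the test of the difference in edgeR, were singled out. The effect in YUMM1.7 minus that in YUMM2.1 was -1.19 on the log2 scale for Peg10, whose level rose with dHLH-Bmal1 in YUMM2.1 and was not called in YUMM1.7. The effect in aC3 minus that in YUMM2.1 was 1.36 for Peg3, 2.29 for Mest, -2.35 for Plagl1 and -1.74 for Peg10. For Plagl1 the effects pointed in opposite directions, with -1.05 in aC3 and 1.27 in YUMM2.1 without hairpin. The second was not called (adjusted p = 0.065). In YUMM2.1 with shNC the Plagl1 effect was -1.42 and called (adjusted p = 0.00306), the same direction as in aC3. The opposite directions thus held only for YUMM2.1 without hairpin. The causes were not tested, and aC3 is a single clone.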

How the results depend on the processing

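Of 116 pairs of gene and comparison, differences between effects included, 24 were called, beside 0% to 26.4% of all genes in single comparisons. Of these, 19 kept the call under every setting with all libraries, 15 also with each library left out, and none changed sign. Among pairs that were not called, 4 changed sign with all libraries and 54 with 1 library left out. Counts of the 10 genes called moved as follows, and the cause was not tested. The share of all genes called moved too, from 0.44% to 11.7% for B16-F10 KO in a fit of all 40 libraries, and from 13.2% to 28.7% for YUMM2.1 dHLH-Bmal1 with exchanged labels and 27.1% with the replicate block. By the DESeq2 Wald test B16-F10 KO went from 64 of 14556 to 390 of 15700 genes called. In the fit of all 40 libraries aC3 dHLH-Bmal1 went from 1501 of 13790 to 160 of 16619. The counts of the 10 genes that moved are therefore not read as results about these genes. With the DESeq2 Wald test these counts were 1 for B16-F10 KO, 0 for aC3 WT-Bmal1, 1 for aC3 dHLH-Bmal1, 1 for shMyh9#4 in WT-Bmal1 cells, 2 for YUMM1.7 minus YUMM2.1 and 1 for the difference of shMyh9#2 effects. Without the filter they were 1 for B16-F10 KO, 2 and 1 for shMyh9#2 in EV and shMyh9#4 in WT-Bmal1 cells, 2 for shMyh9#4 in dHLH-Bmal1 cells, 2 for aC3 EV against YUMM2.1 EV, 3 for YUMM1.7 minus YUMM2.1, 4 for YUMM2.1 dHLH-Bmal1 and 1 for the difference of shMyh9#2 effects. In a fit of all 40 libraries they were 1 for B16-F10 KO, 1 for aC3 dHLH-Bmal1, 1 for shMyh9#2 in WT-Bmal1 cells, 0 for shMyh9#4 in dHLH-Bmal1 cells, 2 for aC3 EV against YUMM2.1 EV, 4 for YUMM2.1 dHLH-Bmal1, 3 for aC3 minus YUMM2.1 and 3 for YUMM1.7 minus YUMM2.1. With exchanged YUMM2.1 labels they were 4 for YUMM2.1 dHLH-Bmal1, 3 for aC3 EV against YUMM2.1 EV and 2 for YUMM1.7 minus YUMM2.1. The counts above 1 for YUMM1.7 minus YUMM2.1, and the 3 for aC3 EV against YUMM2.1 EV, include H19. It reached high counts only in YUMM2.1, so nothing is read from its calls there. With all groups of a line, 3 genes were 4-fold apart between B16-F10 and YUMM2.1.

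Whether the replicate numbers, only 2 per group, pair the libraries was not established (mean correlation of same-numbered deviations 0.486 in YUMM2.1, with 0.285 to 0.628 between its groups, 0.191 in B16-F10, 0.154 in aC3, 0.002 in YUMM1.7 and -0.002 in the hairpin series). With the number as a block, the count was 5 for YUMM2.1 dHLH-Bmal1, 0 for shMyh9#4 in dHLH-Bmal1 cells, 2 for aC3 EV against YUMM2.1 EV and 2 for YUMM1.7 minus YUMM2.1, and Mest in B16-F10 KO turned to -0.16.

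With a library left out, counts ranged from 0 to 4 for B16-F10 KO, 0 to 0 for aC3 WT-Bmal1, 0 to 2 for aC3 dHLH-Bmal1, 3 to 3 for YUMM2.1 dHLH-Bmal1, 0 to 0 for shMyh9#2 in EV cells, 0 to 1 for shMyh9#4 in dHLH-Bmal1 cells, 0 to 1 for aC3 EV against YUMM2.1 EV, 0 to 2 for YUMM1.7 minus YUMM2.1, 2 to 4 for aC3 minus YUMM2.1 and 0 to 1 for the difference of shMyh9#2 effects. In B16-F10 KO, Mest ranged from -1.11 to 0.72 and Sgce from -1.08 to 0.39. The highest count for B16-F10 KO included Meg3, which passed the filter there only through Ctrl replicate 1. Nothing is read from that Meg3 call. Depth limits Igf2, Meg3 and Cdkn1c, which had under 10 counts in most libraries.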

Other observations

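Rasgrf1 and Snrpn, imprinted genes of other loci, also differed between lines, as did Igf1. Igf1 is from the list of the insulin-like growth factor pathway and not from the lists of imprinted genes. These genes and Kcnq1ot1 were chosen after their values were seen. Rasgrf1 had a mean of 131 CPM in YUMM1.7 EV, 7.14 in YUMM2.1 EV, 0.135 in aC3 EV and 0.048 in B16-F10 Ctrl. Snrpn, of the Prader-Willi region, had 21.7 CPM in YUMM2.1 EV and 26.5 in aC3 EV, against 0.12 in B16-F10 Ctrl and 0.224 in YUMM1.7 EV. Igf1 had 23.7 CPM in YUMM2.1 EV, 33.1 in aC3 EV, 0.289 in B16-F10 Ctrl and 0.458 in YUMM1.7 EV. Kcnq1ot1, the noncoding RNA of the Cdkn1c domain, was present in all lines at 305 to 529 CPM.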
